A study of Rattus norvegicus with 6 samples.

Results

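The genes described here carry the calcium cycle of the cardiac muscle cell. They are 10 genes, Ryr2, Trdn, Asph, Casq2, Hrc, Atp2a2, Pln, Cacna1c, Slc8a1 and Jph2, taken by symbol from the 22250 genes of the deposited table, and all 10 were found there once each. Each was followed in the left ventricular myocardium of 3 young and 3 aged rat donor hearts. The donors were Sprague-Dawley rats labelled wild type (WT), 10 weeks old in the young group and 1 year old in the aged group, and the study's methods give male animals. All 6 hearts, the young controls included, were arrested, stored for 6 hours at 4 °C in University of Wisconsin solution and transplanted heterotopically into young rats, and the tissue was taken on postoperative day 1. A transplanted donor heart is perfused by its recipient, so its tissue also holds the recipient's blood cells, and no untransplanted heart is among these 6. The sequenced RNA was selected for poly(A) tails, and each library was 1 heart, numbered 3, 13 and 15 in the young group and 3, 4 and 7 in the aged group. The numbers count within a group, so young heart 3 and aged heart 3 are different animals.

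In a heartbeat, the action potential opens the L-type calcium channel of the sarcolemma, whose pore is encoded by Cacna1c. The calcium that enters opens the ryanodine receptor (Ryr2) of the facing sarcoplasmic reticulum, which releases the store that makes the cell contract. Triadin (Trdn), junctin (a product of Asph) and calsequestrin (Casq2) sit with the receptor on the reticulum side, the histidine-rich calcium binding protein (Hrc) binds calcium in the lumen, and junctophilin 2 (Jph2) holds the membranes of the junction together. For relaxation the calcium pump SERCA2 (Atp2a2), restrained by phospholamban (Pln), returns calcium to the store, and the sodium-calcium exchanger (Slc8a1) carries the rest out of the cell.

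The 6 libraries were alike in depth, with 21457509 to 24560869 reads counted on genes. Library sizes were corrected with TMM factors (trimmed mean of M values), and the scaled counts are given as CPM, that is, relative to a library of fixed size. On this scale 3 counts, taken as the smallest signal, correspond to 0.0985 to 0.191 CPM. Within both groups 1 heart stood apart. Young heart 15 was nearer to aged hearts 4 and 7 than to young hearts 3 and 13 in its cardiomyocyte signal, and aged heart 3 held very little of this signal, judged by the 11 cardiomyocyte markers checked (Myh6, Myh7, Tnnt2, Tnni3, Tnnc1, Myl2, Myl3, Actc1, Mb, Ckm and Mybpc3). The summed level of these markers was 86767, 96300 and 13919 CPM in young hearts 3, 13 and 15, and 180.1, 8632 and 9153 CPM in aged hearts 3, 4 and 7. Each of the 11 markers had reads in every heart, but in aged heart 3 they were few for a library labelled as myocardium. Genes of the mitochondrial genome took 11.9% to 21.7% of the counts in young and 6.57% to 10.3% in aged hearts. Counts were therefore also made without these 2 hearts.

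Before the levels, the DNA just upstream of 3 of the genes is shown, because they encode the calcium pump, its inhibitor and the release channel, and for all 3 each aged heart lay below each young heart. The sequences are the 250 bases before the gene start in RefSeq, build GRCr8, a later build than the Rnor_6.0 named in the submitters' processing notes, so their coordinates cannot be set beside those of the deposited table. They are Atp2a2 at chr12:39733269-39733518, Ryr2 at chr17:63081277-63081526 and Pln at chr20:33172244-33172493, each read on the plus strand, although the deposited table has Ryr2 on the minus strand of its own build. Capitals mark 3 short motifs searched on both strands, GGGCGG (the core of a GC box), CCAAT and GATAA, and each may appear as its reverse complement.
Atp2a2: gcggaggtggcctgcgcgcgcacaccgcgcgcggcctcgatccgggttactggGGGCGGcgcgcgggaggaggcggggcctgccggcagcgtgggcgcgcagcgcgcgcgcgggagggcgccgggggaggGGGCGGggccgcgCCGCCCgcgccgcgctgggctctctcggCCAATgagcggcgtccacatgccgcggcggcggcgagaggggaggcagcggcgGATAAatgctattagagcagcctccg
Ryr2: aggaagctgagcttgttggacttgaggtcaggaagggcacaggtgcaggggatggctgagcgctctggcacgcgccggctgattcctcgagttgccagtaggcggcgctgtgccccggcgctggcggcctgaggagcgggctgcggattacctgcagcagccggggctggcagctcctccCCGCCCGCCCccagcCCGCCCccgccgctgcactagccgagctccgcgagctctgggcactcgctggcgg
Pln: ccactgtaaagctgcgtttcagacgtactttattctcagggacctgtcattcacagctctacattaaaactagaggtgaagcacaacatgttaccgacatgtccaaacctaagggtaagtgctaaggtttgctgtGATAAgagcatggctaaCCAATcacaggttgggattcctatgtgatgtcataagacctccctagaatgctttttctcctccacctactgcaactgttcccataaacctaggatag

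The 3 stretches differed in composition. The Atp2a2 stretch had a GC content of 80.0% and the Ryr2 stretch 72.0%, against 44.0% for Pln and a median of 51.2% over 33469 RefSeq promoters of the same length, whose 95th percentile was 72.8%. GGGCGG occurred 3 times in Atp2a2 and 3 times in Ryr2, where the first pair shares bases, and in none of the others matched. RefSeq promoters were matched for 9 of the 10 members, all but Asph, and GGGCGG was in 2 of the 9, against 30.5% of all promoters. CCAAT was in 5 of the 9 (Atp2a2, Cacna1c, Hrc, Pln and Slc8a1), against 34.0% of all promoters. GATAA was in 3 of the 9 (Atp2a2, Hrc and Pln), against 23.5%. The consensus MEF2 site and the CArG box, which muscle factors bind, were each in 0 of the 9 and in 0.52% and 1.5% of all promoters. These are matches of letters in 1 window per gene, and a gene can start elsewhere.

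Compared with young donor hearts, aged donor hearts had lower levels of the calcium handling genes. The limits of the study were used, which ask for a fold of more than 1.5 or less than 0.67 and for p under 0.05 before adjustment, here from edgeR's quasi-likelihood test. With them 8 of the 10 genes (all but Ryr2 and Hrc) were lower in aged hearts and 0 were higher. Over the 13784 genes tested, 19.0% were lower past these limits and 13.2% were higher. In 9 of the 10 genes (all but Hrc) each aged heart lay below each young heart, against 20.6% of all genes tested, and 21.0% of all genes had each aged heart above each young heart. These shares are context for the counts and no test of the genes as a list. The median log2 fold change of the 10 genes was -3.32, and that of all genes tested was 0.016. All members except Slc8a1, Cacna1c and Asph lay below the 5th percentile of all genes, which was -2.32. After Benjamini-Hochberg adjustment over all genes in edgeR, 0 of the 10 had an adjusted p under 0.05, and none of the 13784 genes had, against 4731 genes with an unadjusted p under 0.05. DESeq2 gave 3592 genes and limma-voom 8416 genes at an adjusted p under 0.05. The limma-voom fit used sample quality weights here and below, so it could give less weight to hearts that stood apart. In both of these fits all 10 members were lower past the limits, beside 21.2% of all genes in DESeq2 and 27.7% in limma-voom. The largest unadjusted p among the members was that of Ryr2, 0.0051 in the DESeq2 Wald test and 0.00798 in limma-voom. At an adjusted p under 0.1 in edgeR, 6 of the 10 were lower (Asph, Pln, Slc8a1, Atp2a2, Jph2 and Cacna1c), against 12.2% of all genes tested. In bulk tissue, fewer cardiomyocytes and less RNA per cardiomyocyte cannot be told apart.

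Without young heart 15, 9 of the 10 genes were lower past the limits, beside 24.2% of all genes tested in that fit, and without aged heart 3 also 9, beside 14.7%. With both left out, which was decided on after seeing the data, all 10 were lower past the limits, beside 26.2% of all genes. The lowest count was 6, without aged heart 7, beside 13.7%.

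**Figure D1:**
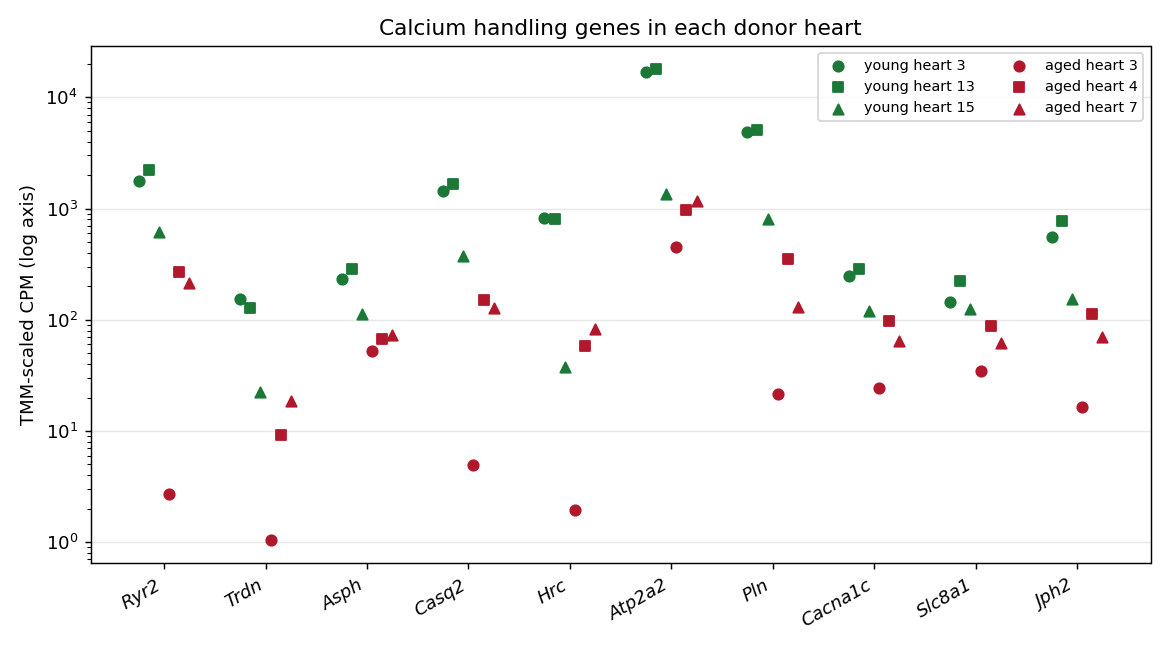
TMM-scaled CPM of the 10 calcium handling genes (vertical axis, log scale) in each of the 6 donor hearts, young in green and aged in red, 1 point per heart. Young hearts 3 and 13 are the highest and aged heart 3 is the lowest for all 10 genes.

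The release complex of the sarcoplasmic reticulum comes first. Ryr2 (ENSRNOG00000017060, Rnor_6.0 chromosome 17 from 65535403 to 65955606, minus strand) encodes the calcium release channel itself. Its level was 1766, 2210 and 619.2 CPM in young hearts 3, 13 and 15 and 2.73, 269.5 and 213 CPM in aged hearts 3, 4 and 7. All aged hearts lay below all young hearts, but they did not lie together, since aged heart 4 was 98.9 times and aged heart 7 78.1 times aged heart 3. The group means were 1532 ± 820.8 CPM in young and 161.7 ± 140.6 CPM in aged hearts (SD, n = 3 each). The log2 fold change was -3.24 (standard error 1.40, edgeR unadjusted p = 0.0577, adjusted p = 0.156), so Ryr2 did not pass the limits. Without aged heart 3 it did, with a log2 fold change of -2.66 (edgeR unadjusted p = 0.00859). The 83 reads of Ryr2 in aged heart 3 were above the floor of 3 counts.

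Trdn (ENSRNOG00000012609, chromosome 1 from 25403390 to 25839345, minus strand) encodes triadin, which anchors calsequestrin to the release channel. It stood at 154, 128.6 and 22.2 CPM in young hearts 3, 13 and 15, and at 1.05, 9.17 and 18.7 CPM in aged hearts 3, 4 and 7. Young heart 15 was only 1.19 times the highest aged heart, aged heart 7, while the groups still did not overlap. Trdn was lower in aged hearts by a log2 fold change of -3.40 (standard error 1.13, edgeR unadjusted p = 0.0221, adjusted p = 0.105). It was the least covered member, with 32 reads in aged heart 3, and it missed the limits without young heart 3 (edgeR unadjusted p = 0.0521) and without aged heart 4 (0.0739).

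Asph (ENSRNOG00000007445, chromosome 5 from 22577675 to 22799349, minus strand) encodes junctin, but the same gene also yields junctate and the enzyme aspartyl beta-hydroxylase, which other cells use, and a count per gene cannot separate them. Young hearts 3, 13 and 15 held 231.7, 284.7 and 113.7 CPM, and aged hearts 3, 4 and 7 held 52.6, 66.6 and 72.2 CPM. The 3 aged hearts lay close together, with the highest, aged heart 7, at 1.37 times aged heart 3, the narrowest range among the members. The means were 210 ± 87.6 and 63.8 ± 10.1 CPM (SD, n = 3 each). Its log2 fold change of -1.72 had the smallest standard error of the members, 0.369, and the smallest p (edgeR unadjusted p = 0.00293, adjusted p = 0.0916). The table places Clvs1 on the opposite strand at the end of Asph, with 1 to 12 reads per heart.

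Both luminal calcium binding proteins were at very low levels in aged heart 3. Casq2 (ENSRNOG00000016243, chromosome 2 from 204512302 to 204568656, plus strand) encodes cardiac calsequestrin, the main store of bound calcium in the reticulum. Its values were 1426, 1660 and 370.8 CPM in young hearts 3, 13 and 15 and 4.96, 150.8 and 126.4 CPM in aged hearts 3, 4 and 7. The groups did not overlap, and young heart 15 was 2.46 times the highest aged heart, the widest such gap among the 10 genes. The log2 fold change was -3.62 (standard error 1.23, edgeR unadjusted p = 0.0243, adjusted p = 0.109). Casq2 missed the limits without young heart 13 (edgeR unadjusted p = 0.0514) and without aged heart 7 (0.059).

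Hrc (ENSRNOG00000020719, chromosome 1 from 101324652 to 101328435, plus strand) encodes the histidine-rich calcium binding protein, which also binds triadin and SERCA2. It was the only member whose groups overlapped. Young hearts 3 and 13 held 822.8 and 808.3 CPM and young heart 15 held 37.3 CPM, below aged hearts 4 and 7 at 58.2 and 83.2 CPM, with aged heart 3 at 1.94 CPM. Young heart 3 was 22.0 times young heart 15, the largest difference between these 2 hearts in any member. The log2 fold change was -3.54 (standard error 1.53, edgeR unadjusted p = 0.0578, adjusted p = 0.157), and the two-sided exact permutation p was 0.3. Without young heart 15, Hrc passed the limits at a log2 fold change of -4.05 (edgeR unadjusted p = 0.0202). Ppfia3 overlaps Hrc on the opposite strand and had 10 to 56 reads per heart, against 59 to 13601 for Hrc. In aged heart 3 they had 11 and 59 reads, the nearest of any heart.

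Reuptake into the store rests on the most abundant members. Atp2a2 (ENSRNOG00000001285, chromosome 12 from 39553903 to 39603326, plus strand) encodes SERCA2, including the widely expressed SERCA2b form that a count per gene cannot separate from the cardiac SERCA2a. It reached 16947, 17790 and 1356 CPM in young hearts 3, 13 and 15, and 447.8, 967.2 and 1170 CPM in aged hearts 3, 4 and 7. Young heart 3 was 12.5 times young heart 15, which in turn was only 1.16 times the highest aged heart, so young hearts 3 and 13 stood apart from the other 4. The means were 12031 ± 9254 and 861.5 ± 372.3 CPM (SD, n = 3 each). The log2 fold change was -3.80 (standard error 1.09, edgeR unadjusted p = 0.0118, adjusted p = 0.0927), and Atp2a2 stayed past the limits in each of the 13 alternative fits. This 1 gene took 1.31%, 1.30% and 0.147% of all counts in young hearts 3, 13 and 15, and 0.0555%, 0.109% and 0.136% in aged hearts 3, 4 and 7.

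Pln (ENSRNOG00000000413, chromosome 20 from 34633157 to 34642904, plus strand) encodes phospholamban, the small membrane protein that slows SERCA2 until it is phosphorylated. Its levels were 4826, 5045 and 809.4 CPM in young hearts 3, 13 and 15 and 21.6, 352.9 and 129.3 CPM in aged hearts 3, 4 and 7. Every aged heart was below every young heart. The means were 3560 ± 2385 and 167.9 ± 169 CPM (SD, n = 3 each). With all 6 hearts its log2 fold change was the largest of the 10 genes in size, at -4.41 (standard error 1.23, edgeR unadjusted p = 0.0105, adjusted p = 0.0923). Leaving out 1 heart moved it between -5.55 (without aged heart 4) and -3.88 (without aged heart 3), and without aged heart 7 it was -4.24 beside -4.30 for Trdn. Cep85l runs across Pln on the opposite strand and had 217 to 444 reads per heart, and in aged heart 3 its 444 reads stood beside 657 for Pln.

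The 2 sarcolemmal genes showed smaller differences. Cacna1c (ENSRNOG00000007090, chromosome 4 from 150641066 to 150829913, minus strand) encodes the pore of the L-type channel, Cav1.2, which vascular smooth muscle also uses. Young hearts 3, 13 and 15 held 248, 283.1 and 119.6 CPM, and aged hearts 3, 4 and 7 held 24.2, 97.8 and 64.8 CPM. The groups did not overlap, with young heart 15 at 1.22 times the highest aged heart. The log2 fold change was -1.80 (standard error 0.571, edgeR unadjusted p = 0.0182, adjusted p = 0.099), and without aged heart 7 the call was lost (edgeR unadjusted p = 0.0529).

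Slc8a1 (ENSRNOG00000008479, chromosome 6 from 4258991 to 4520604, minus strand) encodes the exchanger NCX1, the main route of calcium out of the resting cardiomyocyte. It was read at 145.1, 221.7 and 125.2 CPM in young hearts 3, 13 and 15 and at 34.8, 88.6 and 61.7 CPM in aged hearts 3, 4 and 7. Here young heart 15 was near young heart 3, which was only 1.16 times higher, whereas for Atp2a2 it was not. Slc8a1 had the smallest log2 fold change of the members, -1.41 (standard error 0.40, edgeR unadjusted p = 0.0113, adjusted p = 0.0924).

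Jph2 (ENSRNOG00000008170, chromosome 3 from 159712325 to 159775643, minus strand) encodes junctophilin 2, which spans the gap between the sarcolemma and the reticulum. It was at 559.9, 772.2 and 154.4 CPM in young hearts 3, 13 and 15 and at 16.4, 112.9 and 70.7 CPM in aged hearts 3, 4 and 7. The groups did not overlap, and aged heart 3 was again the lowest. Its log2 fold change was -2.89 (standard error 0.865, edgeR unadjusted p = 0.0141, adjusted p = 0.0947). For each of the 9 members without overlap, the exact permutation test on log2 CPM, two-sided, gave p = 0.1, the smallest that 3 hearts against 3 allow.

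**Figure D2:**
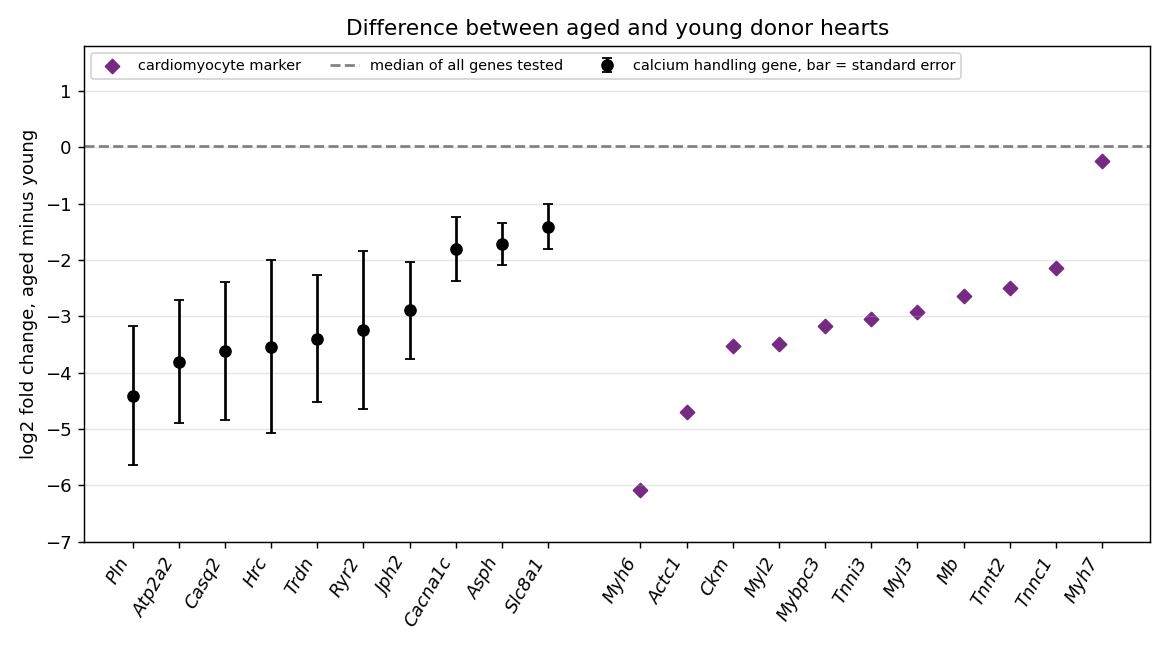
Log2 fold change, aged minus young (vertical axis), of the 10 calcium handling genes in black with the standard error as a bar, and of the 11 cardiomyocyte markers as purple diamonds without error bars. The calcium genes run from -4.41 (Pln) to -1.41 (Slc8a1) and the markers from -6.09 (Myh6) to -0.25 (Myh7); the dashed line is the median of all genes tested, 0.016.

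Levels can be ordered between genes only per length, for which the deposited FPKM values were used (counts divided by gene length and by the library's total). In young hearts the mean level was highest for Atp2a2 at 1388 FPKM, then Pln at 1227, Casq2 at 358.2, Jph2 at 182.6, Hrc at 166, Ryr2 at 82.2, Slc8a1 at 45.3, Cacna1c at 22.0, Trdn at 17.2 and Asph at 15.8 FPKM. The ranges of neighbours overlapped in all but 1 step, that from Slc8a1 to Cacna1c. In aged hearts the mean FPKM was 151.3 for Atp2a2, 85.1 for Pln, 42.6 for Casq2, 36.0 for Jph2, 23.7 for Slc8a1, 21.6 for Hrc, 12.5 for Ryr2, 8.99 for Cacna1c, 6.92 for Asph and 2.42 for Trdn. There the only neighbours with separate ranges were Asph and Trdn. The first 4 genes kept their places between the groups by mean level, while Slc8a1 stood 7th in young and 5th in aged hearts. In aged heart 3 the order was another, with Ryr2 the lowest member at 0.228 FPKM, below Trdn at 0.283 FPKM and Asph at 6.04 FPKM. Trdn lay below Asph in each aged heart.

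Together the 10 genes took 2.09%, 2.14% and 0.405% of all counted reads in young hearts 3, 13 and 15, and 0.0754%, 0.246% and 0.233% in aged hearts 3, 4 and 7. The 95% Wilson interval of each share was at most 0.0122 percentage points wide, for counting error only. Atp2a2 alone made up 62.5%, 60.9% and 36.4% of the members' counts in the young hearts and 73.6%, 44.5% and 58.2% in the aged hearts, so its share among the members overlapped between the groups.

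A ratio of 2 genes within a heart does not depend on how libraries are scaled, and 8 pairs of partners were compared by the two-sided exact permutation test of the log2 ratio of counts. For 1 pair the groups did not overlap. This was Cacna1c to Ryr2, the entry channel against the release channel that it triggers, with 0.141, 0.128 and 0.193 Cacna1c reads per Ryr2 read in young hearts 3, 13 and 15 and 8.87, 0.363 and 0.304 in aged hearts 3, 4 and 7. The difference in log2 ratio was 2.71 against an SD within groups of 1.95 (exact permutation p = 0.1, 0.533 after Benjamini-Hochberg adjustment over the 8 pairs). Without aged heart 3 it was 1.13, in the same direction. No pair passed the test, and with 3 hearts against 3 none could.

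The ratio of the inhibitor to its pump overlapped between the groups. The ratio of Pln to Atp2a2 reads was 0.285, 0.284 and 0.597 in young hearts 3, 13 and 15 and 0.0482, 0.365 and 0.111 in aged hearts 3, 4 and 7, and aged heart 4 lay inside the young range. Its log2 difference was -1.54 (exact permutation p = 0.3, adjusted p = 0.6), and -0.857 without aged heart 3. The ratio of Slc8a1 to Atp2a2, the exchanger against the pump, was 0.00856, 0.0125 and 0.0923 in the young and 0.0777, 0.0916 and 0.0528 in the aged hearts, so young heart 15 had the highest of all. That difference was 1.75 in log2 (exact permutation p = 0.4, adjusted p = 0.64), and without young heart 15 it was 2.80.

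Among the junction partners, Jph2 to Ryr2 was 0.317, 0.350 and 0.249 in young hearts 3, 13 and 15 and 6.02, 0.419 and 0.332 in aged hearts 3, 4 and 7. The log2 difference of 1.64 (exact permutation p = 0.2, adjusted p = 0.533) was 0.302 without aged heart 3. Asph to Trdn was 1.51, 2.21 and 5.12 in the young and 50.1, 7.26 and 3.85 in the aged hearts, a log2 difference of 2.12 (exact permutation p = 0.2, adjusted p = 0.533) and of 1.04 without aged heart 3. The remaining pairs overlapped widely. The log2 difference was 0.244 for Casq2 to Ryr2 (exact permutation p = 1.0), 0.888 for Trdn to Ryr2 (exact permutation p = 0.6) and 0.604 for Hrc to Casq2 (exact permutation p = 0.8), each smaller than its SD within groups. Their signs rested on single hearts, since without aged heart 3 the first was -0.309 and the second -0.051, and without young heart 15 the third was -0.195.

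**Figure D3:**
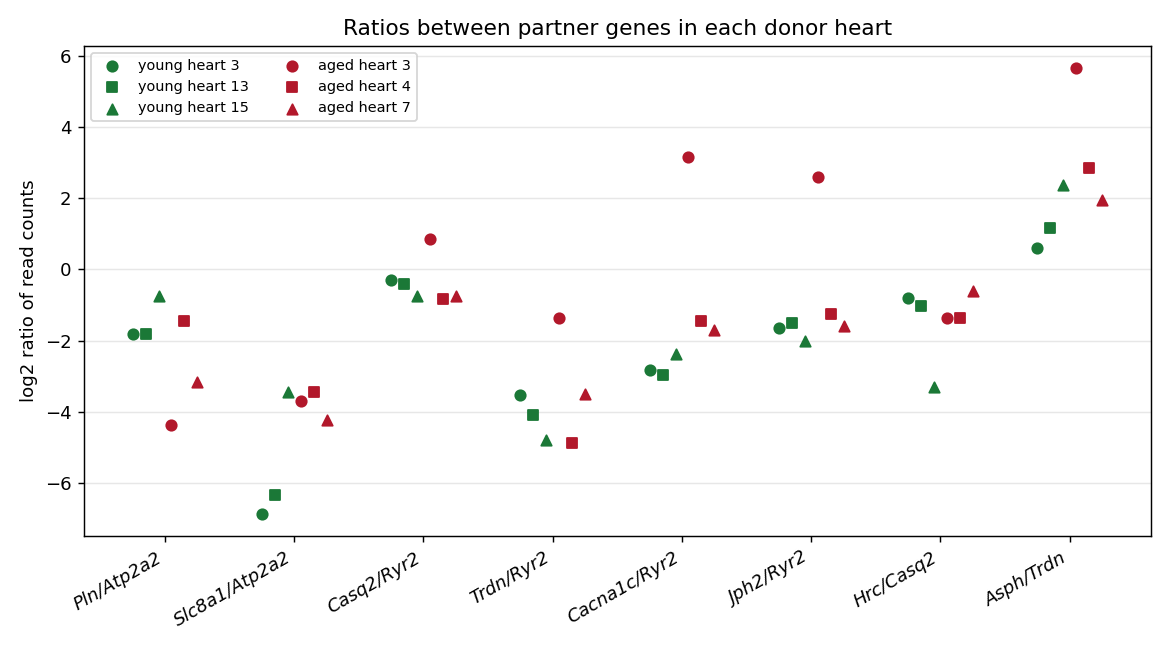
Log2 ratio of read counts (vertical axis) for 8 pairs of calcium handling genes in each donor heart, young in green and aged in red. Only for Cacna1c/Ryr2 do all red points lie above all green ones, and aged heart 3 has the highest ratio in the 4 pairs over Ryr2 and in Asph/Trdn.

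Markers of other cell types were read from lists. The neutrophil, macrophage and T cell lists were higher in each aged heart than in each young heart by their mean log2 level. By the same measure the endothelial, fibroblast, smooth muscle, red blood cell, skeletal muscle and atrial lists overlapped between the groups. By summed CPM, however, the fibroblast list was lower in each aged heart than in each young heart. Of the 11 cardiomyocyte markers, all tested, 3 were lower past the limits (Myh6, Actc1 and Myl2) and 0 were higher, and their mean log2 level was lower in each aged heart than in each young heart. The neutrophil list summed to 5.69, 6.61 and 126 CPM in young hearts 3, 13 and 15 and to 1279, 305 and 649.7 CPM in aged hearts 3, 4 and 7, with 6 of 6 tested genes higher past the limits. Of its granule genes, Mpo and Ngp were at 0 to 0.38 CPM in all hearts and were not tested. Mmp8 and Camp were among the 6 higher genes, though Camp reached at most 0.575 CPM. The macrophage list summed to 347.7, 324.1 and 2226 CPM in the young and 6851, 4028 and 3549 CPM in the aged hearts, with 4 of 8 genes higher. The T cell list ran from 5.74 to 7.99 CPM in young and from 11.1 to 16.3 CPM in aged hearts, with 2 of 4 tested genes higher (Lck and Cd2). Its CD3 genes did not follow, since Cd3e (log2 fold change 0.53) and Cd3g (-0.37) overlapped between the groups and Cd3d was not tested. These CD3 genes reached at most 1.71 CPM in any heart. Endothelial markers ran from 800.6 to 1374 CPM in young and 635.6 to 1060 CPM in aged hearts, fibroblast markers from 2519 to 3819 and 937.7 to 2140 CPM, and smooth muscle markers from 354.3 to 726.6 and 289.4 to 476.7 CPM, with 1 of 5 tested genes lower past the limits in each list. Red blood cell markers ran from 725.3 to 5756 CPM in young and 245.1 to 3093 CPM in aged hearts, and skeletal muscle markers from 9.67 to 15.4 and 12.7 to 18.9 CPM, with 0 genes past the limits. The atrial list was highest in aged heart 4, at 1551 CPM against 42.5 to 427.6 CPM in the others, and 0 of its 4 tested genes passed the limits. Nppa gave most of the sum in aged hearts 4 and 7 and young heart 15, at 1367, 367.6 and 390.3 CPM. Myl7 stood at 49.7 CPM in young heart 3 and 69.2 CPM in aged heart 4, against 0.263 to 5.60 CPM in the others. The part of these cell types in the levels of the calcium genes was not tested.

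Each member was therefore also set against the mean log2 CPM of the 11 cardiomyocyte markers in the same heart. That mean differed by -4.13 (aged minus young, log2 scale), and by -2.29 without aged heart 3. Relative to it, all genes tested had a median difference of 4.14 (2.31 without aged heart 3). That value is nearly the marker difference with its sign reversed, because the median log2 fold change of all genes was 0.016. The groups overlapped for all 10 members, and the median difference of the members was 0.666. On the scale of the edgeR fold changes, by contrast, the median of the members, -3.32, was below the median of the 11 markers, -3.05. Atp2a2 stood at 2.05, 2.02 and 0.734 above the marker mean in young hearts 3, 13 and 15 and at 5.36, 0.928 and 1.26 in aged hearts 3, 4 and 7, on the log2 scale. The difference of 0.911 was within the spread (exact permutation p = 0.8), and without aged heart 3 it was -0.51. Ryr2 lay at -1.21, -0.985 and -0.397 in the young and at -1.96, -0.916 and -1.20 in the aged hearts (difference -0.493, exact permutation p = 0.5). The channel's level thus lay below the marker mean in each heart, by a similar amount in aged hearts 4 and 7 as in the young ones and farthest in aged heart 3. Casq2 was also below the marker mean in each heart, at -1.52 to -1.14 in young hearts and at -1.12, -1.75 and -1.95 in aged hearts 3, 4 and 7 (difference -0.255, exact permutation p = 0.5), so for this gene aged heart 3 was the nearest to the markers.

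Because the same marker mean is taken from every member, the order of the members here is close to that of their fold changes. The exceptions were Atp2a2 and Ryr2, which changed places. Slc8a1 was 2.66 higher relative to the markers in aged hearts, Asph 2.50 and Cacna1c 2.21 on the log2 scale (exact permutation p = 0.2 for each). Much of this lay in aged heart 3, without which the differences were 1.19, 0.797 and 0.942. Without young heart 15 all aged hearts lay above all young hearts for these genes. The differences of Jph2 (1.14), Trdn (0.422), Hrc (0.361) and Pln (-0.631) had exact permutation p from 0.4 to 0.9. Without aged heart 3 the aged hearts lay below the young ones for Pln (difference -1.37) and Casq2 (-0.501), and the median of the 10 members became -0.041, so its sign rests on that heart.

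**Figure D4:**
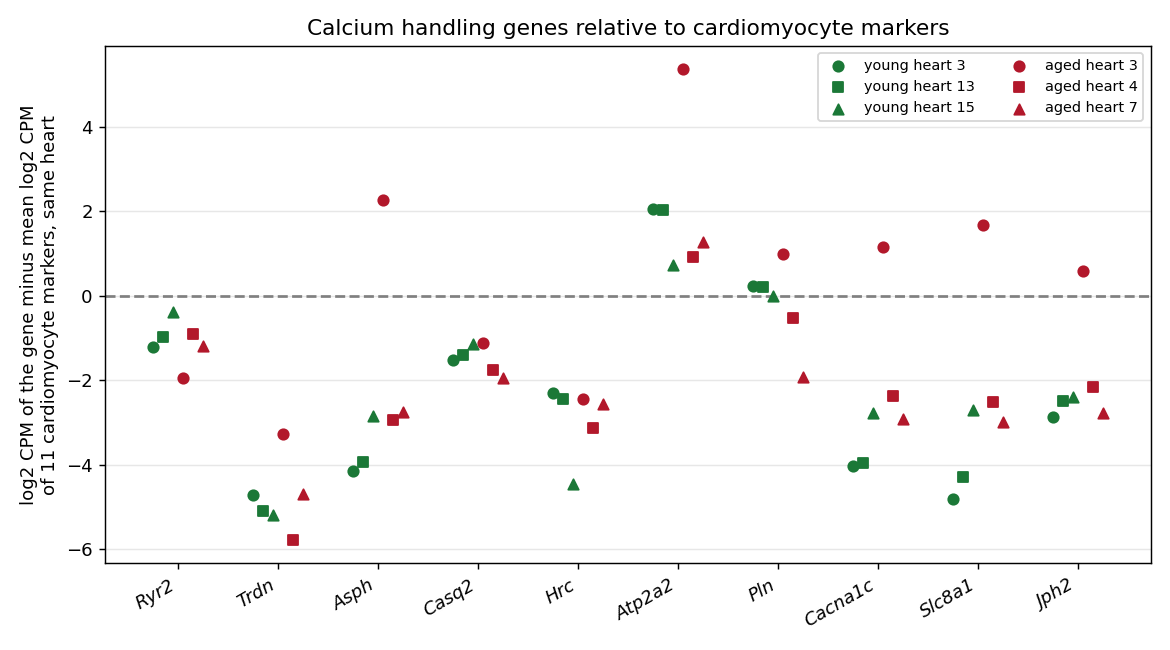
Log2 CPM of each calcium handling gene minus the mean log2 CPM of 11 cardiomyocyte markers in the same heart (vertical axis), young in green and aged in red; 0 is the level of the marker mean. The groups overlap for all 10 genes, and aged heart 3 stands far above the other hearts for Atp2a2 (5.36), Asph (2.27), Slc8a1 (1.67), Cacna1c (1.15) and Jph2 (0.594).

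The rest of the calcium system was read from a wider list of 85 symbols in 7 roles, of which 82 genes were in the table and 75 were tested. In aged hearts 24 of the 75 were lower past the limits (32.0%), 5 were higher (6.7%) and 46 were neither, beside 19.0% and 13.2% of all genes tested. The median log2 fold change was -0.323. With libraries scaled by their totals alone, which moved the median of all genes to 0.455, the split was 14 lower and 7 higher, beside 10.5% and 22.8% of all genes. No called gene of the list changed sign in any of the 13 alternative fits. Without young heart 15 and aged heart 3 the count was 32 lower and 13 higher, beside 26.2% and 27.2% of all genes, and over the fits leaving out 1 heart it ran from 16 (17.3% and 17.7% of all genes called without young heart 3 or 13) to 41 in all (51.1% of all genes, without young heart 15).

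In the release and junction role, 4 of 18 tested genes were lower and 1 was higher. Casq1, the skeletal calsequestrin, stood at 46.1, 51.5 and 31.6 CPM in young hearts 3, 13 and 15 and at 0.591, 6.03 and 2.99 CPM in aged hearts 3, 4 and 7 (log2 fold change -3.75, edgeR adjusted p = 0.0916). The others were the potassium channel Tmem38a of the reticulum, the calcium sensor S100a1 and the anchoring protein Akap6. Bin1, which shapes the T tubules, was higher, at 32.4, 27.0 and 35.6 CPM in the young and 62.9, 52.1 and 48.4 CPM in the aged hearts (log2 fold change 0.78, edgeR adjusted p = 0.0916). The skeletal receptor Ryr1 was at most 1.68 CPM in every heart.

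In the uptake and lumen role, 4 of 6 tested genes were lower (Srl, Ppp1r3a, Ppp1r1a and Atp2a3) and 0 higher. Srl encodes sarcalumenin, a calcium binding glycoprotein of the lumen, and held 1079, 1146 and 168.2 CPM in young hearts 3, 13 and 15 and 2.56, 50.2 and 32.8 CPM in aged hearts 3, 4 and 7 (log2 fold change -4.80, edgeR adjusted p = 0.0916). Sarcolipin (Sln), the atrial inhibitor of SERCA, did not pass the filter and was above 1 CPM in young heart 3 and aged heart 4 alone, at 8.05 and 33.2 CPM.

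Among the sarcolemmal entry channels, 4 of 13 tested genes were lower (Cacna1g, Cacna1h, Cacnb2 and Cacna2d2) and 0 higher. Cacna1g, a T-type channel, stood at 33.8, 36.9 and 23.0 CPM in the young hearts and at 5.35, 6.48 and 4.06 CPM in the aged hearts 3, 4 and 7. The groups lay well apart, and its log2 fold change was -2.56 (standard error 0.292, edgeR unadjusted p = 8.64e-05, adjusted p = 0.0916). Cacnb2, an auxiliary subunit of the L-type channel, was lower by a log2 fold change of -2.32 beside -1.80 for Cacna1c.

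In plasma membrane extrusion 5 of 8 tested genes were lower (Atp2b2, Atp2b4 and Fxyd1 among them) and 1 was higher. The calcium pump gene Atp2b2 held 11.3, 34.8 and 1.57 CPM in young and 0.0985, 0.607 and 0.0766 CPM in aged hearts 3, 4 and 7 (log2 fold change -5.92, edgeR adjusted p = 0.0916), and aged hearts 3 and 7 were at or below 3 counts, so this fitted value is no bound on the change. Another pump of the same family, Atp2b1, was higher, with 58.1, 58.6 and 114 CPM in young and 132.5, 119.2 and 135.2 CPM in aged hearts (log2 fold change 0.75, edgeR adjusted p = 0.143). Fxyd1, which encodes phospholemman, was lower by a log2 fold change of -2.66.

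Among calmodulin, its kinase and calcineurin, 3 of 12 tested genes were lower (Rcan2, Camk2a and Camk2d). Rcan2, a regulator of calcineurin, was at 689, 767.7 and 99.8 CPM in young and 7.49, 40.9 and 38.7 CPM in aged hearts 3, 4 and 7 (log2 fold change -4.16, edgeR adjusted p = 0.0916). Camk2d, the main cardiac isoform of the kinase, showed a log2 fold change of -0.78. Calm2, which encodes calmodulin and which the table lists under 2 identifiers so that its reads may be divided, was at -0.19 and -0.17 and not past the limits.

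In store-operated entry 2 of 9 tested genes were lower and 1 was higher. Trpc1 was at 18.3, 20.03 and 11.6 CPM in young and 4.17, 6.67 and 7.63 CPM in aged hearts 3, 4 and 7 (log2 fold change -1.44, edgeR adjusted p = 0.0916). The channel gene Orai2 was higher, from 5.21 to 18.9 CPM in young and from 26.1 to 30.8 CPM in aged hearts (log2 fold change 1.44, edgeR adjusted p = 0.112). For mitochondrial calcium 2 of 9 were lower, Letm1 (log2 fold change -0.80, edgeR adjusted p = 0.0994) and Smdt1, a subunit of the uniporter. The mitochondrial sodium-calcium exchanger Slc8b1 was higher, at 18.8, 16.5 and 39.8 CPM in young and 85.8, 61.3 and 64.7 CPM in aged hearts (log2 fold change 1.49, edgeR adjusted p = 0.0916).

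Of the 29 calls in the wider list, 14 were lost on leaving out at least 1 heart. Those of Atp2b1, Orai2, Cacna1h and Smdt1 were lost without any 1 heart other than young heart 15, with edgeR unadjusted p from 0.0501 (Smdt1) to 0.148 (Atp2b1). Without any 1 of young heart 3, young heart 13 and aged heart 7, the calls of S100a1, Akap6, Atp2a3, Atp2b4, Camk2a and Letm1 were lost. Without aged heart 3, those of S100a1 and Letm1 were lost, and without aged heart 4 those of Akap6, Atp2a3, Atp2b4 and Ppp1r3a. Camk2d lost its call without young heart 3 or 13 or aged heart 3 or 4. With library totals alone, Letm1 and Camk2d were at log2 fold changes of -0.30 and -0.28, not past the limits. The calls of Casq1, Bin1, Srl, Cacna1g, Atp2b2, Rcan2, Trpc1 and Slc8b1 held in all 13 alternative fits.

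**Figure D5:**
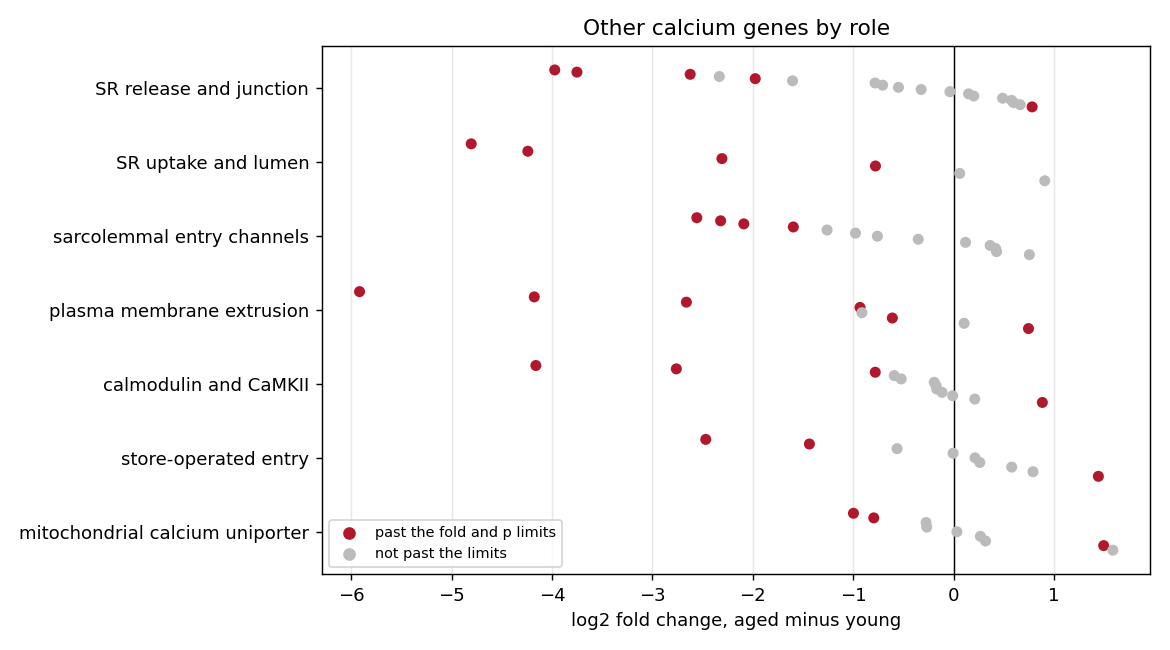
Log2 fold change, aged minus young (horizontal axis), of the 75 tested genes of the wider calcium list by role, 1 point per gene, red where past the fold and p limits. The 24 red points on the left run down to -5.92 (Atp2b2), and the 5 on the right reach 1.49 (Slc8b1); SR is the sarcoplasmic reticulum.

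The genes whose levels followed those of the members most closely were sought among 9448 genes outside the lists with a mean of at least 10 CPM, by Pearson's r over the 6 hearts between log2 CPM and the mean of the scaled members. The creatine transporter gene Slc6a8 had r = 0.999, with 205.5, 244.1 and 106.1 CPM in young hearts 3, 13 and 15 and 32.6, 80.9 and 77.8 CPM in aged hearts 3, 4 and 7. The next 4 were Svil (supervillin, a membrane-associated protein), Zfp612 (a zinc finger gene), Ank1 (an ankyrin that links membranes to the cytoskeleton) and Med25 (a subunit of the Mediator complex), each also with r = 0.999. In all, 903 of the 9448 genes had r above 0.95, so a close match is common in these 6 hearts, which share the same libraries and scaling. The amplitude was not shared, since Med25 ran only from 37.7 to 79.7 CPM and Ank1 from 0.657 to 239.9 CPM.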

How the data were processed

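The authors deposited 1 table with the raw read counts per gene, without normalization, and FPKM values, in which counts are relative to gene length and library total (checked on 133500 values with a relative tolerance of 0.001, of which 1 differed). All per-heart columns belonged to the 6 hearts (0 were left unmapped). The submitters' processing notes name HISAT2 2.0.5, featureCounts 1.5.0-p3, StringTie 1.3.3b, DESeq2 1.16.1, GATK 3.7 and Rnor_6.0, without roles. Use of strand is not given in the sources used here, so reads of overlapping genes on opposite strands may be divided.

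The counts were filtered by filterByExpr (13784 genes tested, 4664 with no read), scaled by TMM and fitted by edgeR 4.0.16 in R 4.3.3 (quasi-likelihood test, no covariate, all 6 hearts). Standard errors were obtained as log2 fold change over the square root of F. Adjusted p-values are Benjamini-Hochberg over all genes. Log2 CPM used a prior count of 2. Single values were tested by exact permutation, two-sided (scipy 1.17.1). Alternatives were DESeq2 1.42.0, limma-voom 3.58.1 with sample quality weights, other scalings and filters, and leaving out hearts. The edgeR, DESeq2 and limma-voom fits were tested on simulated counts in which no heart stood apart, unlike these data. The permutation tests were not tried on simulated data. The most similar hearts, young 3 and 13, differed beyond sampling noise (chi-square over degrees of freedom 10.2, from 13357 genes).

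The members and lists were chosen with earlier results of these data known. The named genes were all 10 members, in each role of the wider list the gene with the smallest edgeR p in each direction past the limits, and the 5 genes most correlated with the members. Some genes that the rule would name, or that a count holds, are not reported here. Other genes are named to account for a count or as background, after their values were seen. Promoters came from RefSeq (GRCr8). The p-values cover the spread between these hearts only.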

Additional observations from a re-analysis of the deposited data

How the results depend on the processing

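Of 130 values of single members under 13 other settings, all 130 were negative, 5 were no longer past the limits and 10 were newly past them (Ryr2 and Hrc, 5 each). The count of members past the limits was 0 at an adjusted p under 0.05 in edgeR and 6 to 9 on leaving out 1 heart, and their median log2 fold change ran from -4.01 (limma-voom) to -2.76 (without aged heart 3). The wider list gave 29 calls with all hearts, 45 with limma-voom (where 54.4% of all genes passed), 16 at an adjusted p under 0.1, 16 to 41 on leaving out 1 heart (16 without young heart 3 or 13, 19 without aged heart 4, 17 without aged heart 7, 41 without young heart 15) and 45 without young heart 15 and aged heart 3, the last chosen after seeing the data. Of the 8 ratios 1 did not overlap between groups, 1 to 3 on leaving out 1 heart and 4 without those 2 hearts. The median of the members relative to the cardiomyocyte markers, 0.666, ran from -0.041 (without aged heart 3) to 1.26 (without aged heart 4) on leaving out 1 heart and was -0.144 without both, and that of Ryr2, -0.493, ran from -0.714 to -0.192 and was 0.041 without both, so these signs rest on aged heart 3 and young heart 15. The causes of the other changes were not tested. No paired analysis was possible because the hearts came from different donor animals and the labels pair none of them. Depth limited no member, the lowest having 32 reads.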
